A study of Mus musculus with 21 samples.

Results

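miR-204-5p and miR-190-5p are a pair of mature microRNAs that are cut from introns of protein-coding genes and are counted among the miRNAs enriched in kidney. They are 2 of the 1125 mature miRNAs in the table, and both were found by name. They were chosen because one was known, from earlier results on these same libraries, to stand above its starting level and the other below it after kidney injury. The direction of their courses is therefore a description here and was not tested.

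The kidneys came from male BALB/c mice aged 12 weeks, an inbred strain, and no altered allele is named. The mice received folic acid at 250 mg/kg, dissolved in 0.3 M sodium bicarbonate, which injures the renal tubules and leads on to fibrosis. Whole kidneys were taken on day 0, in the first days after (days 1, 2 and 3) and later (days 7, 14 and 28), with 3 small RNA libraries each, 21 altogether. Whether the mice of day 0 were injected is not stated, and neither is whether the libraries within a day are different animals. Every later group had received folic acid, so the agent, its vehicle and the passage of time cannot be told apart. P-values measure only the spread between these libraries, which may be technical.

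A miRNA guides an Argonaute protein to messenger RNAs that pair with its seed, the bases near its 5′ end, and such transcripts are then repressed or degraded. Each precursor is a hairpin whose 5p and 3p arms can both be kept, though usually one arm is far more abundant. miR-204 is known from epithelia, among them the renal tubule and the retinal pigment epithelium, and its host gene Trpm3 encodes a cation channel. The host of miR-190a, Tln2, encodes talin 2, an adaptor that links integrins to the actin cytoskeleton.

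The sequences below show which miRNAs could share targets with the pair, and how far they differ in base content. They are RefSeq entries on GRCm38.p6, 5′ to 3′, with the seed (bases 2 to 8) in capitals. The table's miR-190 corresponds to the RefSeq name miR-190a.
miR-204-5p: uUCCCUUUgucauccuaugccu
miR-211-5p: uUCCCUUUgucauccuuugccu
miR-190-5p: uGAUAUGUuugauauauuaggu
miR-190b-5p: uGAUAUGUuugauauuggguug
The pair itself shares no seed. Of the 842 miRNAs of the table that matched a RefSeq entry, 1 other carried the seed of miR-204-5p, miR-211-5p, and 1 other that of miR-190-5p, miR-190b-5p. miR-211-5p differs from miR-204-5p at a single base, A17U, counted from the 5′ end. miR-190b-5p has the first 15 bases of miR-190-5p. Compared position by position, without allowing gaps, it then differs at all of the other 7, and an alignment with gaps could leave fewer differences. miR-204-5p holds G or C at 10 of its 22 bases (45.5%), and miR-190-5p at 5 of 22 (22.7%).

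The hairpins below, with both mature arms in capitals, show both arms that each precursor can yield.
Mir204: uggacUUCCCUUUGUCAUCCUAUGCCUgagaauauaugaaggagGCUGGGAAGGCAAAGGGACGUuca
Mir190a: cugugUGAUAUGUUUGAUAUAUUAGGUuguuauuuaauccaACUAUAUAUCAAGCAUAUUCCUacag
Mir204 lies on chromosome 19 from 22750605 to 22750672 on the plus strand (GRCm38). In GENCODE M21 its 5p arm is intronic in all 18 transcripts of Trpm3 that span it, 764 bases downstream of the nearest exon, and on the same strand as the host. Mir190a lies on chromosome 9 from 67236660 to 67236726 on the minus strand. Its 5p arm is intronic in all 6 spanning transcripts of Tln2, also in the sense direction, and the nearest exon upstream is 3958 bases away. The seed partner miR-211 lies in an intron of Trpm1, a channel gene of the same family as Trpm3, on chromosome 7. No protein-coding gene of GENCODE M21 spans miR-190b on chromosome 3.

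The 21 libraries held between 2875675 and 7110546 miRNA reads. miR-204-5p was covered by 641 to 3058 reads per library and miR-190-5p by 324 to 1001, so counting error alone was 1.81% to 3.95% of the first and 3.16% to 5.56% of the second. Levels are given as CPM, reads per 1000000 miRNA reads, after TMM scaling, which evens out libraries by the bulk of their miRNAs. By mean level at day 0 miR-204-5p ranked 92nd and miR-190-5p 111th of the 431 miRNAs that passed the filter on low counts. With no other tissue to compare, the tissue label could not be checked. As a description, 6 other kidney-enriched miRNAs together held 381158 ± 41923 CPM at day 0 (SD, n = 3). Most of it was miR-10a-5p (133293 CPM), miR-10b-5p (125352) and miR-192-5p (120899). The neuronal miR-124-3p stood at a mean of 0.0868 CPM, but it alone of the neural or retinal miRNAs listed was nearly absent. At day 0 miR-182-5p stood at 2513 CPM, miR-9-5p at 244, miR-183-5p at 115 and miR-96-5p at 9.86.

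miR-204-5p first stood lower and then higher than at the start. The 3 libraries of day 0 held 325, 296 and 327 CPM, a mean of 316 ± 17.1 (SD, n = 3). On day 1 they held 282, 245 and 239 CPM (255 ± 23.3), and all 3 lay below the lowest day 0 library. Day 2 held 345, 329.6 and 348 CPM (341 ± 9.80), just above the highest day 0 library. The libraries stood higher again on day 3, at 428, 395 and 415 CPM (413 ± 16.3), and on day 7, at 538, 455 and 460.2 CPM (484 ± 46.4). Day 14 held the highest mean, 504 ± 50.5 CPM, from libraries at 528, 446 and 538. By day 28 the libraries stood close together at 387, 396 and 397 CPM (393 ± 5.77), still above every library of day 0.

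Set against the mean of day 0, the means of the 6 later days differed, in order of time, by -19.2%, 7.80%, 30.5%, 53.2%, 59.4% and 24.4%. On the log2(CPM + 1) scale these differences were -0.31, 0.11, 0.38, 0.61, 0.67 and 0.32, each with SE 0.10. Ordered by mean level the days ran 1, 0, 2, 28, 3, 7, 14. Of these neighbours, days 28 and 3 overlapped between libraries, as did days 7 and 14, and the difference within each of the other pairs exceeded the larger of their SDs. At day 7, 99 of the 431 miRNAs had a larger positive difference from day 0 than miR-204-5p.

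**Figure D1:**
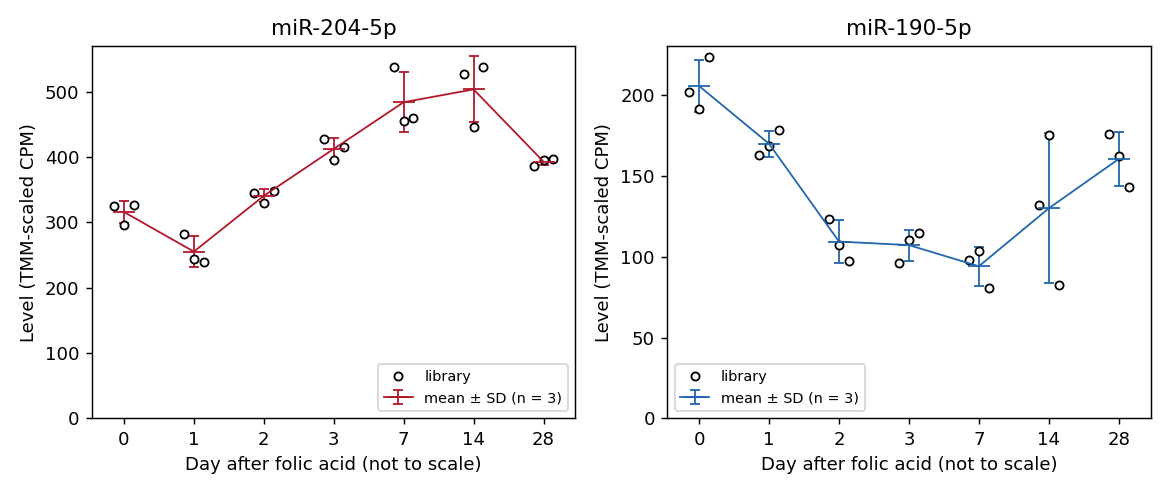
Level of miR-204-5p (left) and miR-190-5p (right) in TMM-scaled CPM by day after folic acid. Circles are libraries, and lines join day means with SD bars (n = 3). Both miRNAs lay below day 0 on day 1, after which the highest mean of miR-204-5p was 504 CPM on day 14 and the lowest of miR-190-5p 94.1 CPM on day 7.

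miR-190-5p stood lower than at the start on every later day. Day 0 held 202, 191 and 223 CPM (206 ± 16.3, SD, n = 3). Day 1 held 163, 168 and 178 CPM (170.0 ± 7.85), all under the lowest day 0 library. By day 2 the libraries held 123, 108 and 97.3 CPM (109 ± 13.2), and no library came near those of day 0. Days 3 and 7 overlapped with day 2, with 96.5, 110.5 and 115 CPM on day 3 (107 ± 9.58), and 98.2, 104 and 80.5 CPM on day 7 (94.1 ± 12.1), the lowest mean of the course. Day 14 was uneven, with 132, 175 and 82.4 CPM (130.1 ± 46.5). Day 28 held 176, 162 and 143 CPM (161 ± 16.7), again without reaching the day 0 libraries.

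The means of the 6 later days differed from that of day 0, in order of time, by -17.4%, -46.8%, -47.9%, -54.3%, -36.8% and -22.0%. The log2 differences were -0.27, -0.91, -0.93, -1.13, -0.72 and -0.36, each with SE 0.18. From the lowest mean up, the days ran 7, 3, 2, 14, 28, 1, 0. In that order only days 1 and 0 were apart in every library, and all other neighbours overlapped. At day 7, 12 of the 431 miRNAs had a larger negative difference from day 0 than miR-190-5p.

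For both miRNAs all 6 later days were thus apart from day 0 in every library on the TMM scale. The share of all miRNAs apart in the same way was not counted, so no weight is put on this. As background by a different measure, limma (adjusted p under 0.05) called 25.3%, 43.4%, 49.4%, 52.4%, 42.9% and 13.0% of all miRNAs on these days in turn. In the direction of miR-204-5p the shares were 11.1% (day 1, lower), 24.4% (day 2, higher), 30.4% (day 3), 29.7% (day 7), 25.1% (day 14) and 11.1% (day 28, higher). In that of miR-190-5p, lower, they were 11.1% (day 1), 19.0% (day 2), 19.0% (day 3), 22.7% (day 7), 17.9% (day 14) and 1.86% (day 28), and 14.2% were higher on day 1. Since the pair was chosen on these contrasts, nothing is read from the comparison of those counts. In the CPM as deposited, scaled by library totals alone, days 2 to 28 stayed apart from day 0 for both miRNAs. Day 1 did not: miR-204-5p then ran from 223 to 289 against 263 to 321 CPM at day 0, and miR-190-5p from 166 to 179 against 170.04 to 216 CPM. In whole kidney, fewer cells of a type and less RNA per cell cannot be told apart.

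The ratio of the 2 miRNAs within a library does not depend on how libraries are scaled. It counts reads and not molecules. At day 0 there were 1.60, 1.55 and 1.47 reads of miR-204-5p for each of miR-190-5p (mean 1.54 ± 0.0697, SD, n = 3). Day 1 held 1.73, 1.45 and 1.34 (1.51 ± 0.201), on either side of the day 0 libraries, so the share of the pair's reads held by each miRNA had not moved beyond the spread. From day 2 every library lay above day 0, with 2.79, 3.06 and 3.58 on day 2 (3.15 ± 0.398) and 4.43, 3.58 and 3.62 on day 3 (3.88 ± 0.484). The mean was highest on day 7 at 5.19 ± 0.708, from 5.48, 4.39 and 5.71. Day 28 held 2.19, 2.44 and 2.78 (2.47 ± 0.293), still above the highest day 0 ratio.

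The day means thus lay on opposite sides of day 0 on days 2 to 28, and not on day 1, when both means stood lower than day 0. On day 2 the difference of miR-204-5p was small, 0.11 (SE 0.10), against -0.91 (SE 0.18) for miR-190-5p, which made most of the change in ratio. The extreme mean of miR-190-5p fell on day 7 and that of miR-204-5p on day 14, although neither day 7 and day 14 of miR-204-5p nor days 2, 3, 7 and 14 of miR-190-5p were apart in all libraries.

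**Figure D2:**
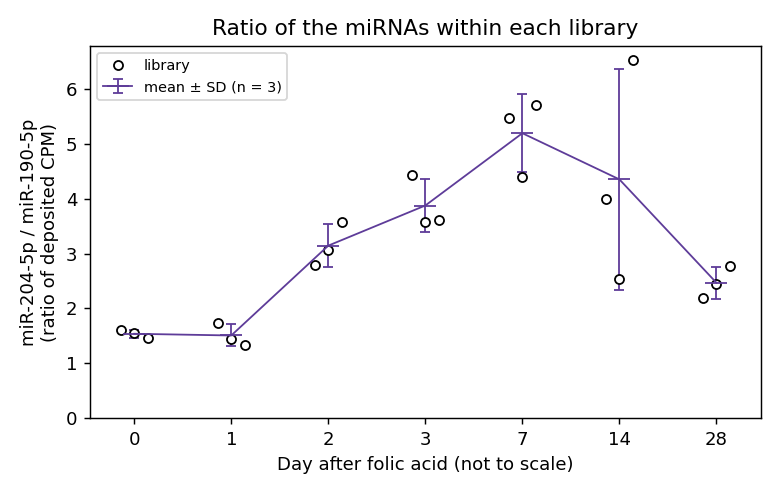
Ratio of miR-204-5p to miR-190-5p reads within each library by day after folic acid, with circles for libraries and lines for day means with SD bars (n = 3). Days 0 and 1 sit between 1.34 and 1.73, and day 14 spreads from 2.54 to 6.52.

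Day 14 was the least even day for the pair. Its replicate 2 held the most miR-190-5p (175 CPM) and the least miR-204-5p (446 CPM), giving a ratio of 2.54. Replicate 3 held the least miR-190-5p (82.4 CPM) and 538 CPM of miR-204-5p, giving 6.52, while replicate 1 lay between at 3.99. The injury miRNA miR-21-5p stood at 34176 CPM in replicate 2, 41079.7 in replicate 1 and 58206 in replicate 3. The summed level of 5 mesenchymal miRNAs followed the same order at 5370, 6104 and 8899 CPM, while that of 9 leukocyte miRNAs did not, at 2901, 3394 and 2762 CPM. The neural or retinal sum also followed it, at 4780, 5792 and 6616 CPM. In the same sequence of replicates, the kidney-enriched sum fell (417511, 413859 and 329425 CPM), as did the urothelial or squamous sum (813, 759 and 639 CPM). The remaining list sums ran in neither order. The part of these in the spread of miR-190-5p was not tested. Without replicate 2 the log2 difference of miR-190-5p on day 14 was -0.97, and without replicate 3 it was -0.43. The log2 ratio on day 14 minus that on day 0, 1.40, became 1.73 and 1.05.

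The other arms and the seed partners were not used to choose the pair and could be tested. Of these 6 miRNAs, miR-190-3p and miR-190b-5p passed the filter. Beside miR-204-5p there was little to test. miR-204-3p had 22 reads over all libraries, with at most 4 in any. miR-211-5p had 83 reads, between 1 and 9 per library, against 37736 of miR-204-5p, and so made up 0.0403% to 0.620% of the reads with this seed. miR-211-3p had no read, which allows up to 3 reads or 1.04 CPM in the shallowest library, counting error only. miR-190b-3p had 6 reads. How reads that fit both miR-204-5p and miR-211-5p were counted is not stated, so the split between these near-identical miRNAs is uncertain.

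miR-190-3p, the scarce arm of the miR-190a hairpin, had 15 to 59 reads per library and fell on days 3, 7 and 14, when the 5p arm also stood below day 0. Day 0 held 10.2, 7.65 and 11.6 CPM (9.80 ± 1.99, SD, n = 3), and day 7 held 3.25, 4.61 and 4.23 CPM (4.03 ± 0.702), all below day 0. In limma, over 431 miRNAs and with Benjamini-Hochberg adjustment, day 7 differed from day 0 by -1.09 on the log2 scale (SE 0.23, adjusted p = 0.00039). Day 3 differed by -0.74 (adjusted p = 0.00997) and day 14 by -0.84 (adjusted p = 0.00514), again with no overlap between libraries. The values of day 1 (-0.02, adjusted p = 0.973), day 2 (-0.48, adjusted p = 0.0913) and day 28 (-0.22, adjusted p = 0.557) did not pass in limma. By day 28 the libraries were back at 9.38, 6.38 and 8.95 CPM (8.24 ± 1.62), overlapping day 0. The F test of limma over all days gave adjusted p = 0.00107. The call of day 3 was lost without day 0 replicate 3 (limma adjusted p = 0.0514, within a range of 0.00584 to 0.0514 over all alternatives).

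The balance of the arms was compared within libraries. There were 21.4 ± 3.15 reads of miR-190-5p for each of miR-190-3p at day 0 and 23.9 ± 5.72 at day 7 (SD, n = 3). The libraries overlapped, from 19.3 to 25.0 at day 0 and from 19.1 to 30.2 at day 7, and the mean log2 ratios differed by 0.14. This is a description, since the ratio holds the member chosen for its course and an exact permutation test of 3 against 3 libraries cannot go below p = 0.1.

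miR-190b-5p, which shares the seed of miR-190-5p but comes from another locus, made up 0.763% to 4.15% of the reads with that seed. It had 4 to 31 reads per library, which limits what could be seen. Day 0 held 3.65, 5.93 and 3.76 CPM (4.45 ± 1.29, SD, n = 3) and day 14 held 2.56, 1.35 and 1.65 CPM (1.85 ± 0.631), below all day 0 libraries. Day 14 was called lower in limma (-0.93, SE 0.28, adjusted p = 0.0101). Leaving out day 0 replicate 2 ended that call (limma adjusted p = 0.0611, from 0.00477 to 0.0611 over all alternatives). On day 7 miR-190b-5p stood at 2.94 ± 0.488 CPM, a difference of -0.45 that did not pass (adjusted p = 0.187), and the F test over all days did not pass either (adjusted p = 0.0862).

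**Figure D3:**
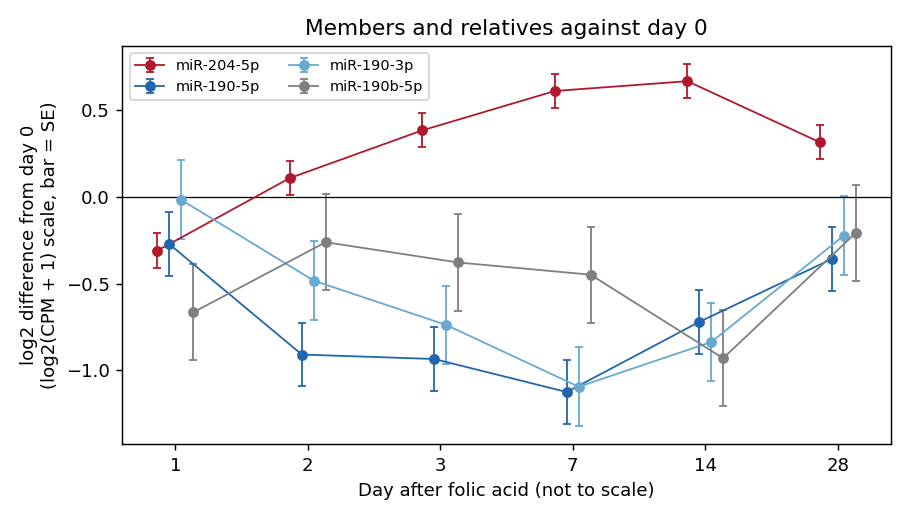
Log2 difference from day 0 (log2(CPM + 1) scale, limma) on each later day for miR-204-5p, miR-190-5p, the other arm miR-190-3p and the seed partner miR-190b-5p, with bars for the SE. miR-190-3p stands near miR-190-5p on days 7 and 14 (-1.09 and -0.84), but its sizes depend on the pseudocount (-0.71 and -0.56 with 5 CPM). miR-204-5p is the one above 0 from day 2 on.

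The miRNAs whose courses were most like that of each member were found by Pearson's r of the 7 day means of log2(CPM + 1), among 291 miRNAs whose mean over the libraries was 10 CPM or more. The measure compares shape and not size, and all courses share the same libraries. For miR-204-5p they were miR-872-5p (r = 0.957), miR-181c-3p (0.952), miR-181d-5p (0.945), miR-199a-5p (0.925) and miR-342-3p (0.924). miR-872-5p differed less between days than miR-204-5p, with means from 238 ± 8.25 CPM at day 0 to 302 ± 24.1 at day 7 (SD, n = 3). The miR-181 family members differed more, with miR-181c-3p going from 56.4 ± 5.86 to 136 ± 18.7 CPM and miR-181d-5p from 115 ± 11.7 to 281 ± 83.5 CPM. miR-199a-5p and miR-342-3p, which are also in the mesenchymal and leukocyte lists used below, had log2 differences of 1.70 and 1.71 on day 7, against 0.61 for miR-204-5p. On day 1, where miR-204-5p differed by -0.31, the values were -0.14 for miR-872-5p, -0.25 for miR-181c-3p, -0.00051 for miR-181d-5p, and 0.22 for both miR-199a-5p and miR-342-3p.

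For miR-190-5p the closest courses were those of miR-338-3p (r = 0.987), miR-1968-5p (0.987), miR-455-5p (0.980), miR-140-3p (0.977) and miR-203-3p (0.974). Those nearest in size as well were miR-1968-5p, scarce at 19.4 ± 2.79 CPM on day 0 and 8.36 ± 2.13 on day 7 (SD, n = 3), and miR-203-3p, a miRNA of stratified epithelium, at 886 ± 42.0 and 445 ± 45.0 CPM. The log2 difference of miR-1968-5p on day 7 was -1.14, against -1.13 for miR-190-5p. miR-455-5p went from 143 ± 10.4 to 94.8 ± 9.78 CPM. miR-338-3p, from an intron of Aatk, went from 40.0 ± 1.29 to 28.7 ± 2.22 CPM, and miR-140-3p, from the Wwp2 gene, had the smallest difference of the 5, -0.17 on day 7.

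**Figure D4:**
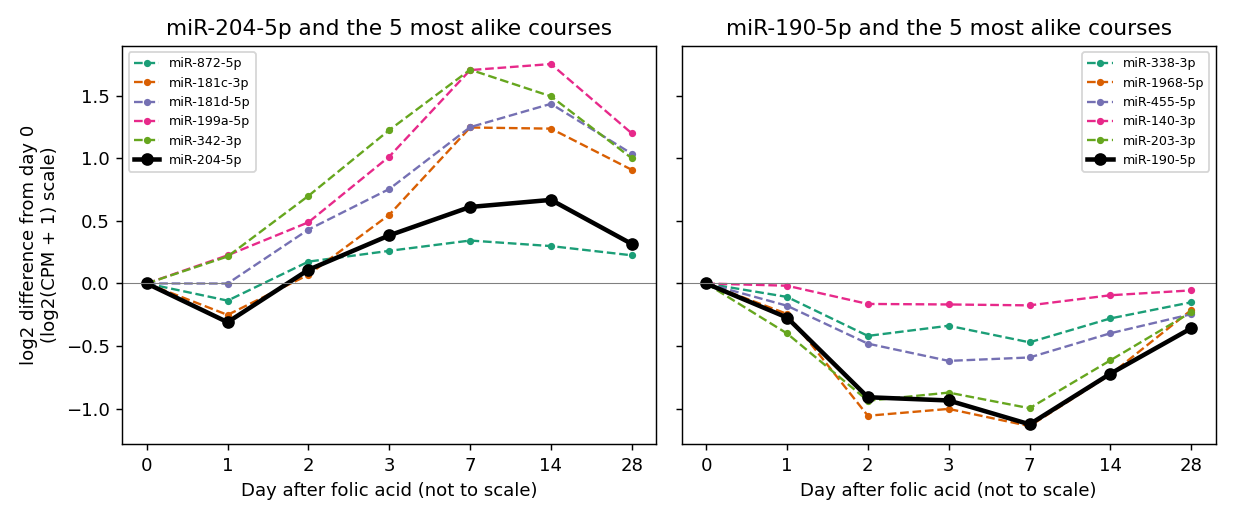
Log2 difference from day 0 (log2(CPM + 1) scale, day means of 3 libraries) for each member (black) and the 5 miRNAs whose 7 day means had the highest Pearson's r with it (dashed). The courses like miR-204-5p differ widely in size, from 0.34 to 1.71 on day 7, and those like miR-190-5p from -1.14 to -0.17.

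Other kidney-enriched miRNAs were followed to place the pair. Of 7 listed, 6 were matched by name and passed the filter. The other, miR-194-5p, had no row of that exact name and is left out of every count and sum of this list. On day 2, 4 of the 6 were lower in limma, against 19.0% of all miRNAs, with a list median of -0.35 against 0.02 over all miRNAs tested. They were miR-192-5p (-0.78), miR-215-5p (-0.80), miR-10b-5p (-0.39) and miR-196b-5p (-0.31), whereas with library totals 2 of the 6 were lower. On day 7, 2 of 6 were lower, against 22.7% of all: miR-192-5p, a proximal tubule miRNA, from 120899 ± 10418 to 66364 ± 7584 CPM (-0.87, adjusted p = 4.89e-06), and its seed relative miR-215-5p (-0.96). On the same day miR-10a-5p, miR-10b-5p, miR-196a-5p and miR-196b-5p, which lie in the Hox clusters, had differences between -0.14 and 0.31 and were not called. On day 14 miR-192-5p and miR-215-5p were still lower and miR-10a-5p (0.44) and miR-196b-5p (0.28) were higher, against 17.9% of all miRNAs lower and 25.1% higher, but with upper-quartile scaling neither of those rises was called. By day 28 limma called 0 of 6, against 13.0% of all miRNAs, with 3 at an unadjusted p under 0.05. edgeR called 0, also with 3 unadjusted, and DESeq2 called 1.

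Other intronic miRNAs were followed in the same way. Of 29 miRNAs listed as lying within protein-coding hosts, all passed the filter. Of 25 with a RefSeq entry, 20 had a copy inside an intron, outside every exon, of a protein-coding gene on the same strand in GENCODE M21. On day 7, 7 of the 29 were higher and 10 lower in limma, against 29.7% and 22.7% of all miRNAs, with a median of -0.04 against 0.07. These counts also hold miRNAs outside the 20. Among those higher they are miR-93-5p, miR-25-3p and miR-191-5p, and among those lower miR-126-3p and miR-378-3p. The calls were not counted over the 20 alone. With library totals the split was 9 and 8, and with upper-quartile scaling 5 and 14. The largest rises were those of miR-342-3p (1.71), from Evl and known from leukocytes, miR-15b-5p (1.24), from Smc4, and miR-106b-5p (1.10), from the replication gene Mcm7. The largest falls were those of miR-107-3p (-1.02), from Pank1, miR-378-3p (-0.86), from Ppargc1b, a coactivator of mitochondrial genes, and miR-33-5p (-0.85), from the sterol regulator Srebf2. The host of miR-378-3p is given from general knowledge, since this name matched no RefSeq entry and was not looked up in GENCODE M21. On day 2, 4 were higher and 13 lower, against 24.4% and 19.0% of all, but with library totals 8 were higher and 6 lower. No values for Trpm3, Tln2 or any other host transcript are in a table of miRNAs, so the levels of hosts were not analysed here.

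Markers of other cells stand beside both courses. The summed level of the 9 leukocyte miRNAs ran from 1151.86 to 1574 CPM at day 0 and from 2573 to 3764 on day 7, and 6 of the 9 rose on day 7 in limma, against 29.7% of all miRNAs, with miR-223-3p, a myeloid miRNA, at 2.45 and miR-142-3p at 2.08. The lymphocyte miRNA miR-150-5p (-0.20), miR-155-5p (0.28) and miR-146a-5p (0.46) were not called. The sum of the 5 mesenchymal miRNAs, among them miR-199a-5p, ran from 1997 to 2401 CPM at day 0, from 5821 to 6066 on day 7 and from 4212 to 5269 on day 28, and all 5 rose on day 7, against the same 29.7%. On day 1, when both members stood below day 0, the mesenchymal sum was 2186 ± 249 CPM against 2143 ± 224 at day 0 (SD, n = 3). The leukocyte sum was 1599 ± 102 against 1351 ± 212 CPM, with 4 of 9 miRNAs higher and 1 lower in limma, against 14.2% and 11.1% of all miRNAs, and 3 called in place of 5 without day 1 replicate 1 or without day 1 replicate 3. The sum of 4 erythroid miRNAs, markers of red cells and thus of blood in the tissue, ran from 1293 to 3380.5 CPM at day 0 and from 4508 to 7655 on day 1, with no overlap. In limma only 1 of the 4, miR-451 (1.52), was higher on day 1, against 14.2% of all miRNAs. Without 1 library, 0 to 2 of them were called. The erythroid sum was highest on day 2, at 7733 ± 2626 CPM, with 3 of the 4 higher, against 24.4% of all miRNAs. On day 3 the sum was 1368 ± 350.3 CPM, overlapping day 0. On that day miR-144-3p (-1.33) and miR-144-5p (-1.55) were lower in limma, 2 of the 4, against 19.0% of all. On day 14 again 2 of the 4 were lower, against 17.9%. Without 1 library, 0 to 3 were called on day 3 and 0 to 4 on day 14. miR-21-5p stood at 15617, 15743 and 12864 CPM at day 0 and at 59796, 55696 and 62763 CPM on day 1. The 5 epithelial miRNAs of the miR-200 family kept a summed level between 9724 and 10400.3 CPM in the day means. On day 7, 1 of the 5, miR-200a-3p, was lower (-0.51) and 1, miR-200c-3p, higher (0.61), against 22.7% and 29.7% of all miRNAs. The endothelial miR-126-5p and miR-126-3p summed to 14275 ± 1117 CPM at day 0 and 10919 ± 325 at day 7 (SD, n = 3). Both arms, 2 of 2, were lower on day 7 in limma (-0.38 and -0.41), against 22.7% of all miRNAs. Of retinal and neural miRNAs, which matter because miR-204 is abundant in eye and choroid plexus, miR-124-3p had 0 CPM on day 7 and miR-9-5p differed by -0.08, while miR-183-5p, miR-96-5p and miR-182-5p were higher (1.98, 1.85 and 1.33). That made 3 of the 4 tested, against 29.7% of all miRNAs. The part of any of these cell types in the course of miR-204-5p or miR-190-5p was not tested.

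**Figure D5:**
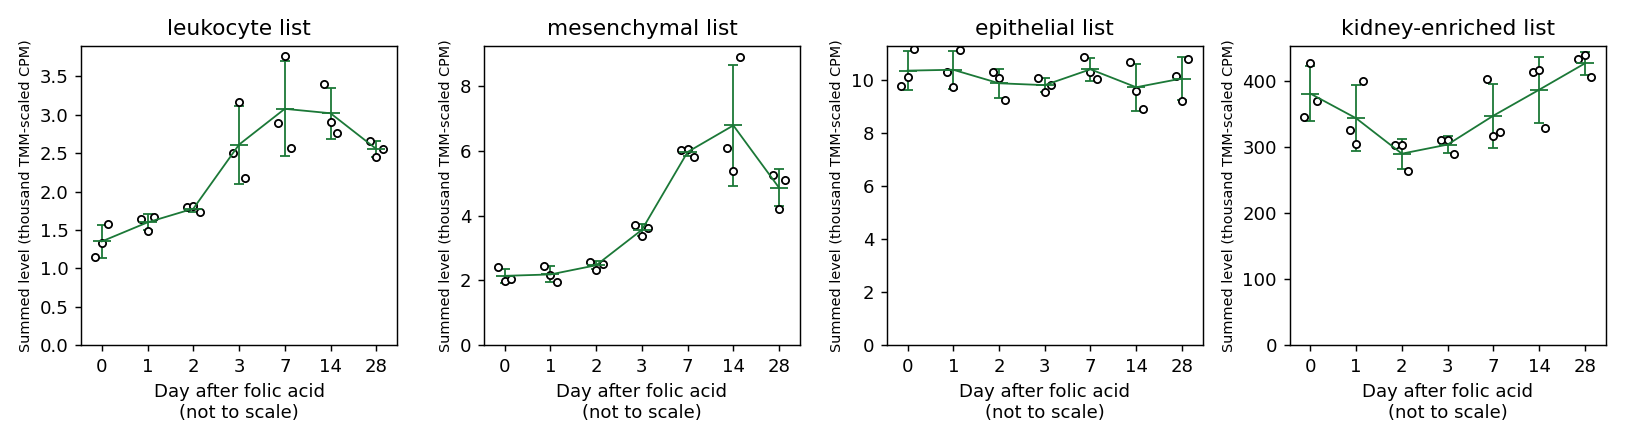
Summed level (TMM-scaled CPM, axis in units of 1000 CPM) of 9 leukocyte, 5 mesenchymal, 5 epithelial and 6 kidney-enriched miRNAs by day after folic acid, with circles for libraries and lines for day means with SD bars (n = 3). The leukocyte and mesenchymal sums are highest on days 7 and 14, and the epithelial sum stays between 9724 and 10400.3 CPM in the day means.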

How the data were processed

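Libraries of whole-kidney small RNA used a TruSeq kit, per the labels' protocols. The authors deposited 1 table of CPM for 1125 mature miRNAs. Each column sums to 1000000 within rounding. CASAVA 1.8 and build mm9 are named per the submitters' processing notes. No source used here gives the aligner, counter or miRBase release. Whole reads were recovered from the CPM steps for 100% of the values, within 0.05 of a read. The recovered reads served the low-count filter (filterByExpr, minimum count 10, 431 miRNAs kept, 2 of 2 members), TMM scaling, and edgeR 4.0.16 (quasi-likelihood) and DESeq2 1.42.0 as alternatives.

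Because the unit is CPM, the main test was limma 3.58.1 with a trended prior, applied to log2 of TMM-scaled CPM plus 1. All 21 libraries shared 1 fit with day as the factor, and p-values were Benjamini-Hochberg adjusted over all 431 miRNAs. A miRNA was called at an adjusted p under 0.05. Alternatives were other scalings, pseudocounts of 0.5 and 5, no filter, only the 2 days compared, a replicate block, and leaving out each library.

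The members, lists and tests were chosen with earlier results of these data known. Named miRNAs were the members, their arms and seed partners, the 5 closest courses to each, the kidney-enriched list, the 3 largest rises and falls called on day 7 in the intronic list, and markers beside a result. Of the markers, the erythroid sum had day means of 1368 to 7733 CPM, the smooth muscle sum 63671 to 84981 CPM, and the urothelial or squamous sum 542 to 999 CPM. Coordinates and sequences are RefSeq's on GRCm38.p6, not the authors' build, and hosts are from GENCODE M21, apart from that of miR-378-3p. TMM factors ran from 0.872 to 1.14.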

Additional observations from a re-analysis of the deposited data

How the results depend on the processing

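All 12 differences of miR-204-5p and miR-190-5p from day 0 kept their sign in the 31 alternatives run for each. Many of these could hardly move a given difference. Of the 31, 21 left out 1 library, and where it came from neither day compared, only the scaling could change. The replicate block and the fits of only the 2 days compared keep the same day means. Scaling by library totals shifted the median over all miRNAs by 0.18 on day 2 and 0.17 on day 3, and miR-204-5p then differed by 0.30, 0.57 and 0.72 on days 2, 3 and 7. Upper-quartile scaling shifted it by -0.18 on day 7 and -0.12 on day 28, and miR-204-5p then differed by 0.28, 0.42 and 0.19 on days 3, 7 and 28. Leaving out 1 library at a time, miR-190-5p on day 14 ran from -0.97 to -0.43. The log2 ratio of the pair on day 14 ran from 1.05 to 1.73. That of the arms of miR-190a on day 7 ran from -0.039 (without day 7 replicate 1) to 0.29, and was -0.018 with 1 CPM added to both arms. miR-190-3p on day 3 ran from -0.90 to -0.62, and miR-190b-5p on day 14 from -1.10 to -0.74. On day 1 miR-190b-5p ran from -0.97 to -0.37, called without day 1 replicate 3 (limma adjusted p = 0.0181, range 0.0181 to 0.398).

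Of kidney-enriched miRNAs, 2, 1 and 1 were called on days 2, 3 and 28 with library totals against 4, 3 and 0. On day 28, RLE, upper-quartile scaling and DESeq2 called 1. On day 14, 2 in place of 4 were called with upper-quartile scaling, with no filter and in fits of the 2 days compared. On day 1 DESeq2 called 2 in place of 1. Leaving out libraries gave 1 to 2 on day 1, 2 to 4 on day 14 and 0 to 1 on day 28. Of intronic miRNAs, 9 were called on day 1, against 5 with library totals and 5 in fits of the 2 days, and 4 to 9 without 1 library. On day 14 fits of the 2 days called 5 in place of 11. On day 28, 2 were called, against 4 with library totals, 4 with RLE, 5 with upper-quartile scaling and 5 in DESeq2, and 2 to 4 without 1 library. Of all miRNAs, 56 were called on day 28, and 37 to 67 without 1 library, with 37 without day 28 replicate 1. Markers of cell types called on day 1 numbered 6 to 13 without 1 library. The share of calls that were higher went from 56.0% to 70.7% on day 1, 56.1% to 75.3% on day 2, 61.5% to 74.4% on day 3 and 85.7% to 75.6% on day 28 with library totals. With upper-quartile scaling it went from 56.6% to 45.1% on day 7 and 85.7% to 58.0% on day 28. The causes were not tested.

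Replicate numbers did not pair the libraries: same-numbered libraries of different days deviated together with a mean correlation of 0.00414 (-0.363 to 0.267 over 63 pairs), and 7 of 21 libraries correlated best with their own number. Every day holds the same replicate numbers, so a replicate block cannot change a difference between days, and those of the pair are no check. It can change only the spread, and with it 223 miRNAs were called on day 7. The block moved no count of calls given here by over 1.5 times. The depth of 15 to 59 reads for miR-190-3p and 4 to 31 for miR-190b-5p limits both.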
